A study of Mus musculus with 4 samples.

Results

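The accessory structures of the mouse sperm tail were followed through 10 genes, chosen by name: the outer dense fiber genes *Odf1*, *Odf2*, *Odf3* and *Odf4*, the fibrous sheath genes *Akap3*, *Akap4*, *Fscb*, *Ropn1* and *Ropn1l*, and *Smcp* of the mitochondrial capsule. Of these, 9 matched a gene by symbol among the 12415 genes with reads on the sense strand of exons, and all 9 passed the filter on low counts, which kept 10728 genes. *Fscb* was not matched, under this or an older symbol, and its RNA level was not analysed here. Total testicular RNA had been sequenced after removal of ribosomal RNA, from *Nef-sp* -/- mice and from *Nef-sp* +/- controls, with 2 libraries per genotype. All mice were adults on the C57Bl/6J background at postnatal day 60 (P60). The null allele of *Nef-sp*, a gene for an RNA exonuclease of the testis, carries a small out-of-frame deletion made with Cas9 nickase and a pair of guide RNAs. Founders were bred to wild-type C57Bl/6J Rj mice. The controls are heterozygous and hold 1 copy of the same deletion, so that no library represents wild-type testis. Control and knockout below mean *Nef-sp* +/- and *Nef-sp* -/-. A whole testis is a mixture of germ cells at every stage and somatic cells. The labels do not say whether the libraries of a genotype came from separate animals, and the p-values below therefore measure only the spread between these libraries.

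The tail of a mammalian sperm is built around the axoneme, the microtubule motor of the flagellum. Outer dense fibers, stiff cables rich in cysteine, run along the microtubule doublets, and in the principal piece they are enclosed by the fibrous sheath, a scaffold of ribs and columns that holds protein kinase A and glycolytic enzymes. In the midpiece the fibers are wrapped by mitochondria, whose outer surface is reinforced by the keratin-like mitochondrial capsule. The genes for these parts are transcribed mainly in spermatids, the haploid germ cells, where much of the mRNA is stored before it is translated.

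Promoter sequences show what some of these genes have in common around the transcript start. RefSeq promoters, from 250 bases before to 50 bases after the start of a transcript in build GRCm38.p6, were matched for 9 of the 10 genes, in 13 entries. *Odf1* had no entry. The following windows are shown because they hold the 8-base sequence TGATGTCA, in capitals, a sequence similar to the full cAMP response element TGACGTCA. The motif was picked after the sequences had been seen.

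*Akap3*, chr6:126853045-126853114, plus strand, from base -53 to base 17 of the transcript start: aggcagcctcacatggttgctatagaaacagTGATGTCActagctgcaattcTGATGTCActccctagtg
*Akap4*, chrX:7067449-7067518, plus strand, from base -66 to base 4: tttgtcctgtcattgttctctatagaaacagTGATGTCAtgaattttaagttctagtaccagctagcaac
*Fscb*, chr12:64474911-64474980, minus strand, from base -82 to base -13: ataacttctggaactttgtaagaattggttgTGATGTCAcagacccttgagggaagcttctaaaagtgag
*Smcp*, chr3:92589031-92589060, minus strand, from base 14 to base 43: ggagagtattaTGATGTCAtaaaagagctg

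The motif was found, on either strand, in 4 of the 13 promoter entries, against 3.62% of all 32851 promoters of the same length. The windows of *Akap3* and *Akap4*, which encode the anchoring proteins of the fibrous sheath, share the 20 bases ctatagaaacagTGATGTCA. This was the longest identical stretch over 71 pairs of promoters from different genes of the group, and no other promoter among the 32851 held it. The full element TGACGTCA (1.79% of all promoters), its core TGACGT (7.51%) and the TATA sequence TATAAA (13.6%) were found in no promoter of the group on either strand. GTTGCC, part of the sequence bound by RFX factors, was found for *Odf3* and *Ropn1l* (12.5% of all promoters), and CCAAT for *Odf2*, *Akap3*, *Akap4* and *Fscb* (37.4%). A match is a description of the letters only.

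Between 20659865 and 34442517 reads were counted per library, of which 15815159 to 26618821 lay on the sense strand of exons. The targeted gene, annotated as *2610020H08Rik*, had 1843 and 1693 normalized counts in control replicates 1 and 2 and 407 and 497 in knockout replicates 1 and 2, which gave a log2 fold change of -1.97 ± 0.09 (SE, edgeR quasi-likelihood test, adjusted p = 4.12e-06). Normalized counts are raw counts scaled to the mean effective size of the 4 libraries. All 12 markers of haploid cells had reads in every library. One library stood apart in the sum of the 12 haploid markers. Control replicate 1 had 352763 normalized counts, against 429568 in replicate 2 and 433686 and 423248 in the knockouts. Most of this sum came from *Prm2*, *Tnp2*, *Prm1* and *Tnp1*, with 96587, 78701, 73471 and 60173 in control replicate 1. Not every marker was low in that library: *Acrv1*, *Spaca1* and *Catsper1* were slightly higher in control replicate 1 than in replicate 2. The fold changes of the group are also given without control replicate 1. The shares, levels, intron, antisense and list values rest on all 4 libraries unless stated.

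None of the 4 outer dense fiber genes differed between genotypes by the test. *Odf1* encodes a cysteine-rich core protein of the fibers that is related to the small heat shock proteins. It had 25478 and 34359 normalized counts in the controls and 35115 and 32727 in the knockouts. The first control library was low, the second lay between the 2 knockout libraries, and the genotypes overlapped. The log2 fold change, here and below that of knockout over control, was 0.18 ± 0.11 (SE, 95% interval -0.07 to 0.43, edgeR adjusted p = 0.954). In bulk testis, fewer cells of a type and less RNA per cell cannot be told apart, here and for each gene that follows.

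*Odf2*, which encodes another major fiber protein and, as other isoforms, a protein of centriolar appendages, had the most reads of the group. Its normalized counts were 86133 and 97812 in the controls and 100830 and 96162 in the knockouts. Again the first control library was the lowest and the genotypes overlapped, with a log2 fold change of 0.10 ± 0.07 (SE, 95% interval -0.06 to 0.26, edgeR adjusted p = 0.954). GENCODE vM1 lists 28 transcripts for it, of which 16 are coding. The counts are given per gene and not per transcript, so that fiber and centriolar forms cannot be told apart.

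*Odf3*, a tail gene expressed late in spermatid development, had the lowest count of the group. Its libraries held 2745 and 2973 normalized counts in the controls and 2742 and 2879 in the knockouts. The 4 values were interleaved, and the log2 fold change was -0.03 ± 0.06 (SE, 95% interval -0.17 to 0.11). *Odf4*, which encodes a membrane protein of spermatids and the sperm tail, had 5001 and 4872 normalized counts in the controls and 5297 and 5166 in the knockouts. Both knockout libraries lay above both control libraries, but the shift was small, with a log2 fold change of 0.08 ± 0.06 (SE, 95% interval -0.04 to 0.21, edgeR adjusted p = 0.954).

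**Figure D1:**
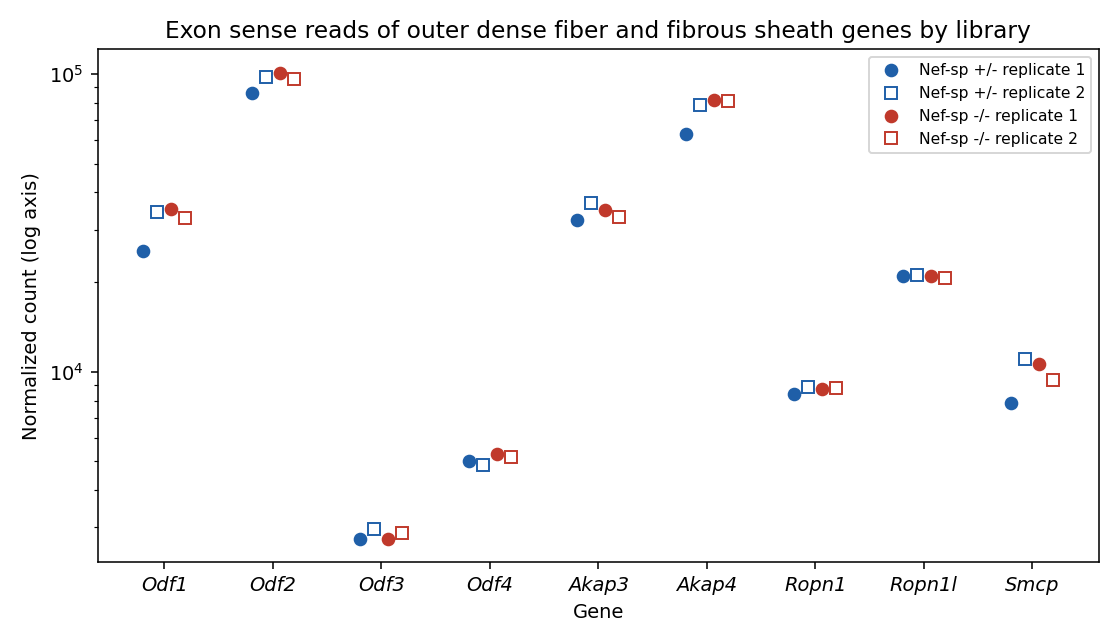
Normalized counts of exon sense reads (log axis) of the 9 measured genes in each of the 4 libraries, with *Nef-sp* +/- in blue and *Nef-sp* -/- in red, replicate 1 filled and replicate 2 open. *Nef-sp* +/- replicate 1 is the lowest point of *Odf1* (25478), *Odf2* (86133), *Akap4* (62670) and *Smcp* (7873), while the 4 points of *Ropn1* and *Ropn1l* nearly coincide.

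Of the scaffold genes of the fibrous sheath, *Akap4* had the highest fold change of the group and *Akap3*, beside *Odf3*, the lowest, and neither passed the test. *Akap4*, an X-linked gene for the most abundant protein of the sheath, which anchors protein kinase A, had 62670 and 78571 normalized counts in the controls and 81757 and 81017 in the knockouts. The knockout libraries lay above both controls and close to each other, with an SD of 523 counts against 11240 for the controls (n = 2 each). Its log2 fold change of 0.20 ± 0.09 (SE, 95% interval 0.00079 to 0.41) had the smallest p-value of the group before adjustment (0.0493) and did not pass after it (edgeR adjusted p = 0.954). *Akap3*, whose product is incorporated into the sheath before AKAP4 and also binds protein kinase A, had 32392 and 36914 normalized counts in the controls and 34906 and 33125 in the knockouts. Here the 2 control libraries were the lowest and the highest of the 4, and the log2 fold change was -0.03 ± 0.07 (SE, 95% interval -0.19 to 0.13). Both genes were among the 6 of 9 measured genes that were lowest in control replicate 1.

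The ropporin genes had the narrowest relative range over the 4 libraries. Ropporins bind the anchoring proteins of the sheath through a domain like that of the regulatory subunit of protein kinase A. *Ropn1* had 8439 and 8900 normalized counts in the controls and 8756 and 8806 in the knockouts, both knockout values lying between the controls (log2 fold change 0.02 ± 0.06, SE, 95% interval -0.11 to 0.15). *Ropn1l* had 20897 and 21067 in the controls and 20918 and 20640 in the knockouts (log2 fold change -0.01 ± 0.06, SE, 95% interval -0.14 to 0.11). The upper ends of their intervals correspond to a 1.11-fold and a 1.08-fold higher level in the knockouts, and the lower ends to 0.925-fold and 0.906-fold.

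*Smcp* encodes the cysteine-rich protein of the mitochondrial capsule, and its mRNA is a textbook case of translational delay in spermatids. It varied most within a genotype: 7873 and 11037 normalized counts in the controls and 10649 and 9358 in the knockouts. The 2 control libraries enclosed the 2 knockout libraries, and the log2 fold change was 0.08 ± 0.13 (SE, 95% interval -0.20 to 0.36, edgeR adjusted p = 0.965). The cysteine content that *Smcp* shares with *Odf1* can be read from the coding sequence. Cysteine codons make up 32 of 143 codons of *Smcp* (22.4%) and 41 of 248 of *Odf1* (16.5%), and 0.282% to 3.69% in the other 8 genes. The stretches richest in cysteine, from the GENCODE vM1 transcripts, are printed with the codons TGC and TGT in capitals.

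*Smcp*, codons 70 to 89, with 8 cysteine codons of 20: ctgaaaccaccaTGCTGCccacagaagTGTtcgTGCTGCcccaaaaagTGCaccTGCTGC
*Odf1*, codons 188 to 207, with 7 cysteine codons of 20: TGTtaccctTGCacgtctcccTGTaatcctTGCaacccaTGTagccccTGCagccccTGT

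Over the group, 0 of the 9 measured genes passed an adjusted p of 0.05 by edgeR, against 0.00932% of all genes tested, which is the single gene *2610020H08Rik*. By DESeq2 0 of 9 passed, and 2 of 12415 genes did. Before adjustment, 1 of 9 (*Akap4*) had a p below 0.05, against 4.80% of all genes. In 2 of 9 genes (*Odf4* and *Akap4*) both knockout libraries lay above both control libraries, which occurred in 16.4% of all genes, and in 0 of 9 they lay below, which occurred in 18.1%. These shares are too close to those of all genes, for so few members, to be read as a result about the group. The log2 fold changes ran from -0.03 to 0.20 with a median of 0.08, against a median of -0.00022 over all 10728 genes. Across the 9 genes, the highest upper end of an interval was a 1.35-fold higher level in the knockouts (*Odf1*) and the lowest lower end a 0.872-fold level (*Smcp*).

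Together the 9 genes held 1.38% of the exon sense reads in control replicate 1 (Wilson 95% interval 1.38% to 1.39%), 1.58% in replicate 2 (1.58% to 1.59%), and 1.59% (1.59% to 1.60%) and 1.55% (1.54% to 1.56%) in knockout replicates 1 and 2. The intervals cover counting error only. The controls averaged 1.48% ± 0.141 and the knockouts 1.57% ± 0.0322 (SD, n = 2 each). An exact two-sided permutation test gave p = 0.667, also after adjustment over this share and that of the haploid markers, and with 2 libraries against 2 it cannot go below 0.333. Both knockout values lay close to that of control replicate 2.

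As a log2 ratio, the control libraries differed more from each other than the knockout libraries did for every measured gene but *Ropn1l*, by a small margin for *Odf4* (-0.038 against -0.036). This was not particular to the group. Over the 3659 genes with a mean of at least 1000 normalized counts, the median absolute ratio was 0.0661 in the controls and 0.0565 in the knockouts. On the log2 scale, control replicate 2 exceeded replicate 1 by 0.49 for *Smcp*, 0.43 for *Odf1*, 0.33 for *Akap4*, 0.19 for *Akap3* and 0.18 for *Odf2*. Of the 3659 genes with a mean of at least 1000 normalized counts, 0.273%, 0.765%, 2.46%, 11.8% and 12.7% differed by as much in either direction. *Odf3* (0.12), *Ropn1* (0.08), *Odf4* (-0.04) and *Ropn1l* (0.01) were within the range of most genes, whose median absolute ratio was 0.0661. Between the knockout libraries, the ratio of replicate 2 to replicate 1 ran from -0.19 (*Smcp*) to 0.07 (*Odf3*), with 6.50% of genes as far apart as *Smcp*. Control replicate 1 was the lowest of the 4 libraries in 6 of 9 genes and the highest in 0, whereas it was the lowest in 26.8% and the highest in 27.2% of all genes tested.

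**Figure D2:**
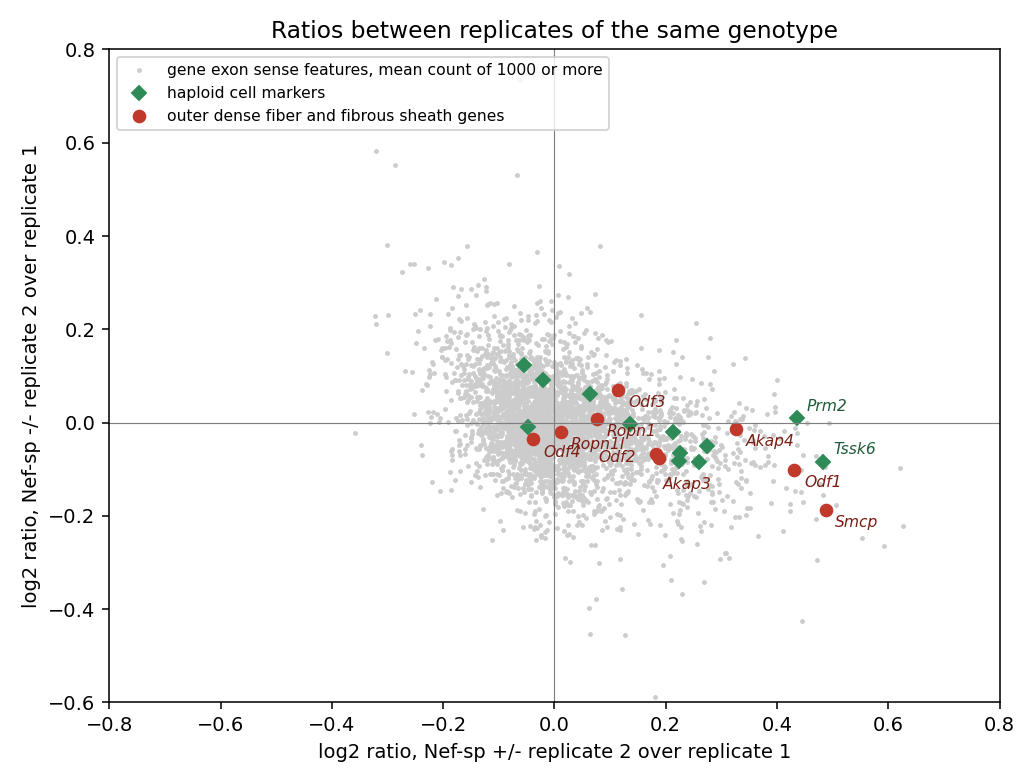
Log2 ratio of replicate 2 over replicate 1 in *Nef-sp* +/- (horizontal axis) and *Nef-sp* -/- (vertical axis) for genes with a mean of 1000 or more normalized counts (grey, 3655 of 3659 within the axes), for the haploid markers (green diamonds) and for the 9 genes of the group (red circles). *Smcp* (0.49), *Odf1* (0.43) and *Akap4* (0.33) lie far to the right with *Tssk6* (0.48) and *Prm2* (0.44), while *Ropn1l*, *Odf4* and *Ropn1* lie in the dense cloud.

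The same library was low for some genes of haploid cells and not for others. *Tssk6*, a kinase of late spermatids, differed by 0.48 between the control libraries on the log2 scale, and *Prm2*, a protamine that packs sperm DNA, by 0.44. The acrosomal genes *Acrv1* (-0.02) and *Spaca1* (-0.05) and the sperm calcium channel gene *Catsper1* (-0.05) did not share the shift. The median ratio was 0.22 over the 12 haploid markers and 0.18 over the 9 genes of the group, against -0.0059 over all genes tested. For the 9 spermatocyte markers, which come from the preceding meiotic stage, the median was -0.05, and their sum was 82964 normalized counts in control replicate 1, 79749 in replicate 2, and 79506 and 77943 in the knockouts. *Hspa2* alone held 45704 of the counts in control replicate 1. The cause of this library difference was not tested.

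With 1 control library or the other left out, *Odf1*, *Odf3*, *Akap3*, *Ropn1* and *Smcp* changed direction, and the call changed for 4 genes. Without control replicate 1, the log2 fold changes were -0.02 for *Odf1*, 0.01 for *Odf2*, 0.05 for *Akap4* and -0.14 for *Smcp*, and 0 of the 9 genes passed (edgeR, smallest adjusted p = 0.647). Without control replicate 2, so that the low library was the only control, they were 0.41 for *Odf1* (edgeR adjusted p = 2.45e-08), 0.19 for *Odf2* (0.00354), 0.38 for *Akap4* (7.81e-09) and 0.35 for *Smcp* (0.000166). In that fit 252 genes passed, among them 13 genes of the lists described below, such as *Oaz3*, *Prm2* and *Tnp1*, and the lone control library was assumed to vary as the knockout libraries do. Among all alternatives run, these 4 genes passed only in that fit. *Odf4* stayed between 0.07 and 0.11 and *Ropn1l* between -0.02 and -0.00071 when any 1 library was left out.

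**Figure D3:**
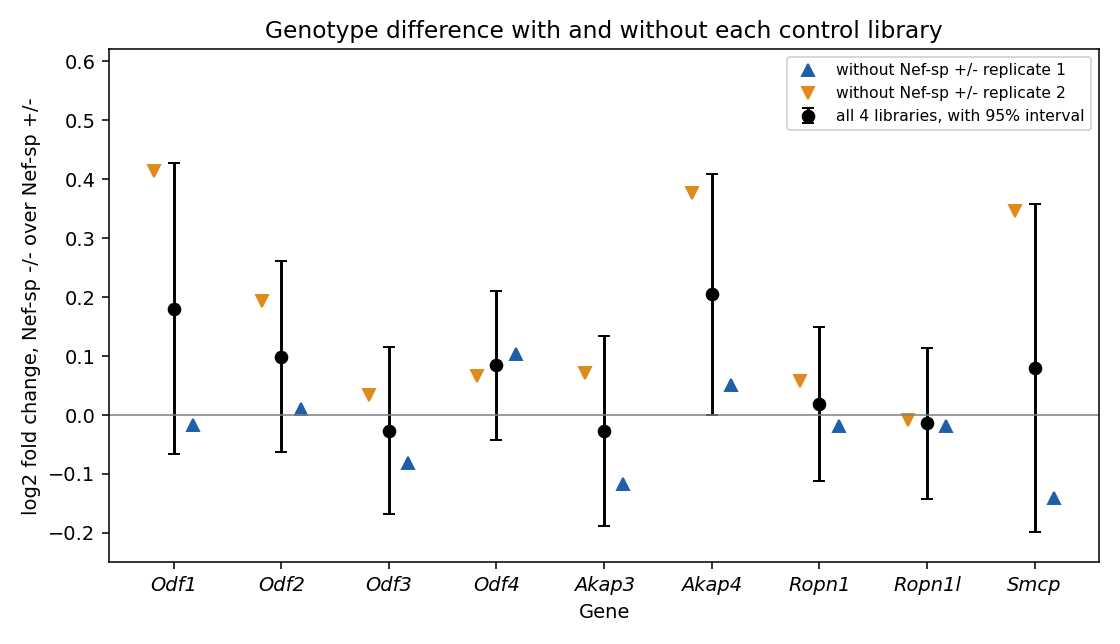
Log2 fold change between the genotypes (*Nef-sp* -/- relative to *Nef-sp* +/-) for the 9 genes, with all 4 libraries (black circles, bars are 95% intervals), without *Nef-sp* +/- replicate 1 (blue triangles) and without *Nef-sp* +/- replicate 2 (orange triangles). For *Odf1* the 2 triangles are at -0.02 and 0.41, for *Smcp* at -0.14 and 0.35, and for *Ropn1l* both are close to 0.

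No other listed gene of the same structures passed the test with all 4 libraries. Of 10 further outer dense fiber genes and genes for partners of ODF1, 8 were measured and 0 passed by edgeR, with a median log2 fold change of 0.01. *Oaz3*, the antizyme of haploid germ cells, had the most reads and the highest value of them, 27095 and 34119 normalized counts in the controls and 34941 and 35981 in the knockouts (log2 fold change 0.21 ± 0.09, SE, edgeR adjusted p = 0.954), and *Odf3b* the lowest (-0.10 ± 0.13, SE). *Oaz3* had the same low first control library as *Odf1* and *Akap4*. Of 16 further fibrous sheath genes, 12 were measured and 0 passed, with a median of 0.03. *Prkar2a*, a regulatory subunit of protein kinase A, was the highest (0.14 ± 0.08, SE), *Rhpn1*, a rhophilin that binds ropporin, the lowest (-0.24 ± 0.11, SE), and the sperm lactate dehydrogenase gene *Ldhc* had the most reads (0.05 ± 0.06, SE). These are partners or cargo of the sheath. Both knockout libraries lay below both controls for *Rhpn1* and above them for *Ldhc*. All 13 listed genes of the mitochondrial sheath and the annulus were measured and 0 passed, with a median of 0.03. Among them *Spem1*, needed for removal of spermatid cytoplasm, was the highest (0.16 ± 0.09, SE), the septin gene *Sept12* the lowest (-0.05 ± 0.06, SE), and the glycerol kinase gene *Gk2* had the most reads (0.03 ± 0.06, SE).

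No marker of a testis cell type passed the test in the fit of all 4 libraries without a block. Of the 12 haploid markers 0 passed (median log2 fold change 0.05), with the transition protein gene *Tnp1* highest (0.18 ± 0.08, SE), the sperm-egg fusion gene *Izumo1* lowest (-0.04 ± 0.06, SE) and *Prm2* with the most reads (0.12 ± 0.11, SE). In the 9 spermatocyte markers the median was -0.05, from *Dmc1* (-0.15 ± 0.12, SE) to *Sycp2* (0.06 ± 0.06, SE), and *Hspa2* had the most reads (-0.07 ± 0.06, SE). These lists cover the cells that transcribe most tail genes and the meiotic cells before them. Of the 8 spermatogonial markers 5 were tested, with a median of 0.0034, from *Sohlh1* (-0.28 ± 0.33, SE) to *Uchl1* (0.14 ± 0.09, SE). The 6 Sertoli cell markers tested of 8 had a median of -0.04, from *Sox9* (-0.24 ± 0.38, SE) to *Gata1* (0.12 ± 0.19, SE), with *Clu* at 0.01 ± 0.06 (SE). Markers of cells outside the tubules had a wider range of values, also with 0 genes past the threshold. The lowest values, of *Cdh5* and *Hbb-b1*, rest on few reads, 10 to 37 and 9 to 37 per library. The 7 Leydig cell markers had a median of 0.08 and ran from the steroid enzyme gene *Cyp11a1* (-0.35 ± 0.08, SE, edgeR adjusted p = 0.859) to the hormone gene *Insl3* (0.18 ± 0.13, SE), with *Cyp17a1* at -0.27 ± 0.08 (SE), and *Cyp11a1* and *Cyp17a1* passed when either control library was left out. The 5 peritubular and vessel markers tested of 6 had a median of -0.07, from *Cdh5* (-0.65 ± 0.33, SE) to *Tagln* (0.06 ± 0.13, SE), with *Acta2* at -0.16 ± 0.07 (SE). The 5 macrophage and blood markers tested of 8 had a median of -0.16, from *Hbb-b1* (-0.75 ± 0.38, SE) to *Emr1* (0.09 ± 0.35, SE), with *Lyz2* at -0.16 ± 0.09 (SE). The hemoglobin gene *Hba-a2* (-0.57 ± 0.15, SE), named after its values were seen, passed when control replicate 1 was left out. Epididymal markers summed to 9.86 to 18.5 normalized counts per library, too few to be tested.

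Compared per length, the tail genes ranked near the top of the testis transcriptome. Levels were expressed as reads per kilobase of the longest coding transcript, scaled to the exon sense reads of each library (RPKM), as a mean over the 4 libraries, for 11384 genes. *Odf1* stood at 1548 RPKM (rank 16), *Akap4* at 1348 (rank 22), *Odf2* at 1290 (rank 24) and *Ropn1l* at 1232 (rank 27). The values of neighbours in this order overlapped between libraries, from 1266 to 1684 for *Odf1*, 1139 to 1434 for *Akap4*, 1195 to 1349 for *Odf2* and 1212 to 1261 for *Ropn1l*. *Odf1* was the highest of these 4 genes in each library, while the order of the other 3 changed between libraries. When the length of all annotated *Odf2* exons was used instead, its level was 514.7 RPKM (rank 87). *Smcp* (641.3 RPKM, rank 70) overlapped *Akap3* (584.4, rank 82) and *Ropn1* (535.0, rank 100), with *Smcp* libraries between 531.8 and 724.2. *Odf4* (253.1 RPKM, rank 310) and *Odf3* (100.8, rank 941) lay below the others and apart from each other in every library. By genotype, the level of *Akap4* was 1263 ± 175.6 RPKM in the controls and 1433 ± 0.561 in the knockouts (SD, n = 2 each), and that of *Ropn1* 536.1 ± 9.21 and 534.0 ± 5.36.

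Reads on the sense strand of introns, as unspliced RNA gives, were rare for most of these genes. *Akap4* had 10 intron reads in all 4 libraries beside 305293 exon reads, and *Odf1* 23 beside 128995. Per base, intron reads were 0.00123% as dense as exon reads for *Akap4*, 0.00307% for *Odf1* and 0.00614% for *Ropn1*. Of 4633 genes, 0.237%, 1.38% and 2.78% had a lower value, and the median was 0.164%. Genes with no entry for intron sense reads were left out of the 4633. These shares and the median therefore do not describe all genes, and genes with very few intron reads may be underrepresented. *Odf3* stood at the other end with 7.0%, above 96.8% of these genes, and *Odf4* with 0.869%, above 79.8%. The remaining genes of the group were nearer the middle, with *Akap3* at 0.0600%, *Smcp* at 0.0807%, *Ropn1l* at 0.187% and *Odf2* at 0.331%. Lengths were those of GENCODE vM1, whereas the authors had sorted the reads into exons and introns by their own annotation. *Odf3* has 1150 intron bases in GENCODE vM1. Whether its intron reads came from unspliced RNA was not tested.

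**Figure D4:**
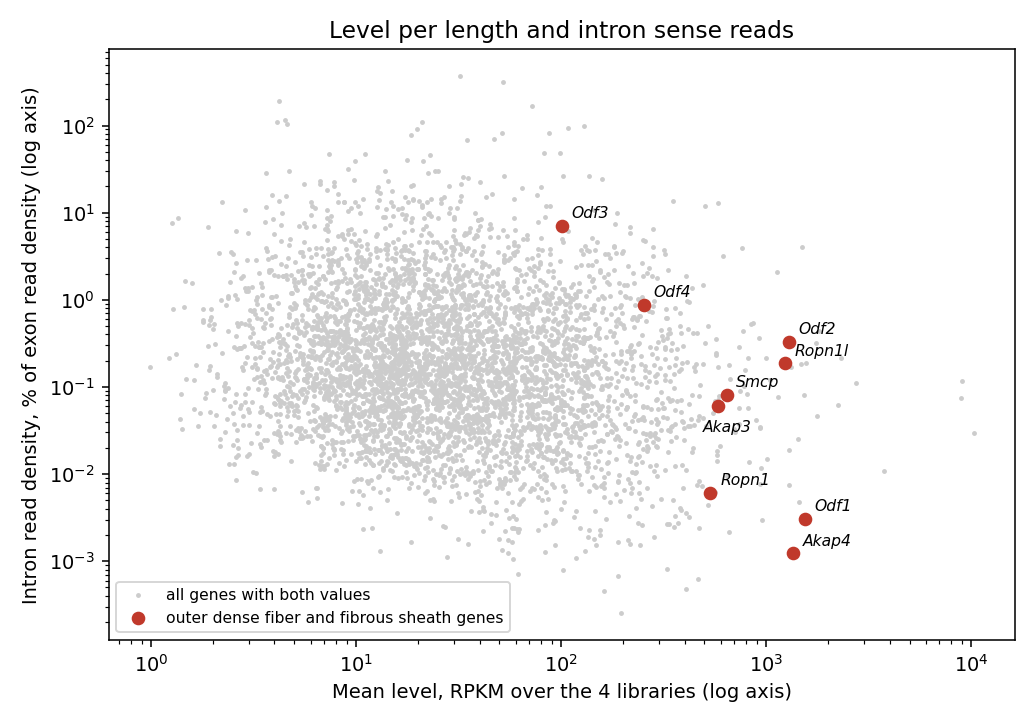
Density of intron sense reads as a percentage of exon read density (log axis) against mean level in RPKM over the 4 libraries (log axis) for genes with both values above 0 (grey) and for the 9 genes of the group (red). *Akap4* (0.00123%) and *Odf1* (0.00307%) lie at the bottom right, and *Odf3* (7.0%) at the top.

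Intron reads gave a second comparison of the genotypes for 7 of the 9 genes, those with enough reads to be tested. By edgeR 0 of 7 passed, against 0.0294% of 3403 genes tested, and 2 of 7 had an unadjusted p below 0.05, against 2.35%. *Odf3* had 130.0 and 125.1 normalized intron counts in the controls and 90.49 and 91.29 in the knockouts, a log2 fold change of -0.49 ± 0.18 (SE, edgeR adjusted p = 0.99957). *Odf4* had 127.8 and 143.5 in the controls and 184.6 and 166.1 in the knockouts, a log2 fold change of 0.36 ± 0.17 (SE, edgeR adjusted p = 0.99957). The genotypes did not overlap in 2 of 7 genes with the knockouts above (*Odf4* and *Ropn1*), as in 13.5% of all genes, and in 2 with the knockouts below (*Odf3* and *Ropn1l*), as in 14.5%. The other differences were -0.14 for *Smcp*, -0.09 for *Ropn1l*, -0.05 for *Akap3*, 0.05 for *Odf2* and 0.41 ± 0.38 (SE) for *Ropn1*, which had 12 to 18 reads per library. The antisense strand held few reads: 647 on *Odf2* exons (0.169% of its exon sense reads), with a log2 fold change of 0.01 ± 0.15 (SE), and 144 on *Odf2* introns (-0.44 ± 0.27, SE, edgeR adjusted p = 0.969). *Odf1* had 4 and 3 antisense exon reads in the controls and 2 and 10 in the knockouts, too few to test.

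In mm9 with the GENCODE vM1 annotation, no exon of a measured gene overlaps an exon on the same strand of another gene. *Odf1* spans chr15:38148958-38156490 on the plus strand with 2 exons, *Odf2* chr2:29744741-29787266 (plus, 22 exons in its longest coding transcript), *Odf3* chr7:148033704-148036917 (plus, 6 exons) and *Odf4* chr11:68735337-68740583 (minus, 5 exons). *Akap3* spans chr6:126803116-126824325 (plus, 6 exons), *Akap4* chrX:6644645-6655735 (plus, 7 exons), *Ropn1* chr16:34650007-34678704 (plus, 6 exons), *Ropn1l* chr15:31370965-31383444 (minus, 5 exons) and *Smcp* chr3:92387814-92392896 (minus, 2 exons). *Fscb*, for a calcium-binding protein of the sheath, is a gene of 1 exon at chr12:65572320-65575885 on the minus strand. A U6 RNA gene overlaps the span of *Odf2* on the opposite strand. Whether it overlaps *Odf2* exons was not determined. Whether the antisense reads on *Odf2* exons came from this U6 gene was not tested. The pseudogene *Gm6361* lies within an intron of *Ropn1l*. Every 50-base stretch of the 9 measured transcripts has at most 1 perfect match in the genome, and no such stretch occurs in another coding gene, whereas 12 of the 3517 stretches of *Fscb* match several places. Stretches without a genomic match, which span exon junctions, make up 4.45% of *Odf1*, 6.02% of *Smcp*, 7.54% of *Akap3* and 9.49% of *Akap4* but 28.8% of *Ropn1* and 24.5% of *Odf2*. Since the authors kept only reads that match the genome perfectly, levels per length of genes with many junctions may be understated.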

How the data were processed

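The labels gave the genotype and replicate number of each library. The authors used in-house tools to map trimmed 50-cycle reads to mm9. Perfect matches alone were retained, and the deposited table holds raw counts per feature, annotation category and strand from stranded libraries. A read across an exon junction has no perfect match in the genome. How reads matching several places were counted is not given in the sources used here. The authors also deposited a mean normalized signal, a log2 fold change, p-values and adjusted p-values from DESeq2, none of which was used.

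Exon sense counts of the 4 libraries were fitted with edgeR 4.0.16 in R 4.3.3 (TMM, filterByExpr with a minimum count of 10, quasi-likelihood test, no covariates), and p-values were adjusted by the Benjamini-Hochberg method over all genes tested. Genes on intron and antisense strands were fitted separately by category. Levels per length used GENCODE vM1 on mm9. Alternatives were DESeq2 1.42.0, other scalings and filters, a replicate block and leaving out each library. Named are the group, *2610020H08Rik*, listed genes past the threshold, and the highest, lowest and most abundant gene of each list. The members and lists were chosen with earlier results of these data known. Promoters were from RefSeq (GRCm38.p6), and figures were drawn with matplotlib 3.10.9.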

Additional observations from a re-analysis of the deposited data

How the results depend on the processing

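Genes passing the threshold numbered 1 in the fit reported and 2 with DESeq2 without shrinkage, and 1 to 252 when 1 library was left out (41 without *Nef-sp* +/- replicate 1, 252 without replicate 2). Members passing numbered 0 to 4 when 1 library was left out and 0 under the other alternatives. The replicate block gave 1 gene, 0 members, a member median of 0.08 and 0.21 for *Akap4*. Deviations of same-numbered libraries correlated at -0.19 over 9124 features, the labels give the numbers no shared origin, and a block with crossed numbers, chosen after seeing the data, gave 99 genes, 0 members and 3 genes of the other lists (*Cyp11a1*, *Cyp17a1* and *Hba-a2*). Directions turned for *Ropn1* with library sizes over all categories (-0.0058) and, with 1 library left out, for *Akap3* (-0.12 to 0.0709), *Odf1* (-0.0177 to 0.413), *Odf3* (-0.0806 to 0.0342), *Ropn1* (-0.0186 to 0.0577) and *Smcp* (-0.14 to 0.35), and for the member median (-0.02 to 0.11). *Odf2*, *Odf4*, *Akap4* and *Ropn1l* kept their direction under every alternative run. With 2 libraries per genotype, the 95% intervals of the fits above give the precision of each fold change. Passing the adjusted threshold took more than an interval without 0: that of *Akap4* lay above 0, with an edgeR adjusted p of 0.954. The fits without 1 library show how far the values depend on the control library kept. The cause of these changes was not tested.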
